A study of Mus musculus with 59 samples.

Results

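The clustered protocadherins are cell adhesion genes that lie in 3 neighbouring arrays, alpha, beta and gamma, on mouse chromosome 18. A gene belonged to the set if its symbol begins with Pcdha, Pcdhb, Pcdhga, Pcdhgb or Pcdhgc followed by a digit or c, it lies on that chromosome, and it was listed in at least 1 of 14 count tables of single mouse epiblasts. Of 57 such genes in the annotation, 37 were listed, among 22119 genes with a listed transcript in all. They were 7 of 13 alpha genes, 21 of 22 beta genes and 9 of 22 gamma genes, and the other 20 were not analysed here. Listed transcripts were matched to the annotation by identifier between different releases, and 2494 of 72515 had no match, so a gene that was not listed is not shown to lack reads. The alpha array spans 18:36930184-37187661, the beta array 18:37264938-37524479 and the gamma array 18:37661793-37841873, all on the plus strand of GRCm38.

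The epiblasts, the pluripotent tissue from which the body of the embryo forms, were dissected singly at E6.25 from a mixed genetic background. In 1 cross both parents were heterozygous for a null allele of *Ehmt2*, the gene for G9a, which dimethylates lysine 9 of histone H3, and 4 knockout epiblasts (labelled G9a-/-) were set beside 4 controls (labelled G9a+/+). In the other both parents were heterozygous for a null allele of *Ezh2*, the catalytic subunit of Polycomb repressive complex 2, which trimethylates lysine 27 of histone H3, with 3 knockouts (Ezh-/-) and 3 controls (Ezh+/+). The study also describes the controls of both crosses as +/+ or +/-, its *Ehmt2* mice carried a Pou5f1-EGFP reporter transgene, and the loss in both crosses is constitutive, so extraembryonic tissues lack the gene too. The epiblasts came from 4 litters in the *Ehmt2* cross and 3 in the *Ezh2* cross.

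Each alpha and gamma gene joins its own large first exon, which has its own promoter, to 3 constant exons shared by the whole array, whereas the beta genes have no constant exons and most are a single exon. The first exon encodes the extracellular cadherin repeats, the membrane span and part of the cytoplasmic tail, and the constant exons encode the common end of the tail. In neurons, where these proteins are best known, CTCF and cohesin help choose which promoters are active in each cell, and the resulting combination of isoforms gives the cell an adhesive identity that recognises its own kind. The C-type genes at the end of the arrays (*Pcdhac1*, *Pcdhac2*, *Pcdhgc3*, *Pcdhgc4*, *Pcdhgc5*) are controlled apart from the alternate genes, and as a class they are less subject to random choice.

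This structure decides what the counts measure. The authors counted reads for each transcript, and a read on a constant exon was counted for every transcript that has it. The constant exons add up to 2860 nt in the alpha array and 2119 nt in the gamma array, and the first exons of the listed genes are 2388 to 3028 nt and 2565 to 2961 nt long. Of the 6 listed transcripts of *Pcdha9*, *Pcdha11*, *Pcdha12*, *Pcdhac1* and *Pcdhac2*, all 6 had the same count in 8 of 14 epiblasts and 5 had the same count in the other 6. The lowest of the 9 gamma transcripts was 74.1% to 95.1% of the highest in the same epiblast, with a median of 88.2%. The lowest count of an array's transcripts is therefore the most that all of them can share, and the counts of a transcript above that lowest value are reads that some other transcript of the array does not have. Both quantities are given below, and transcripts of 1 array are not independent measurements. *Pcdha1* and *Pcdha2* had 0 to 7 counts although the annotation gives them the same constant exons. *Pcdha1* was below the other alpha transcripts in 14 of 14 epiblasts and *Pcdha2* in 13, with 6 counts against 1 in *Ehmt2* knockout 1. Both were left out of the alpha minimum, a choice made after their values were seen. Counting by strand is not stated in the sources used here, so antisense transcription cannot be told apart.

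The tables summed to 62589918 and 68464895 counts in *Ehmt2* control 4 and knockout 4, whose tables also differ in layout, and to 30161171 to 45007990 counts in the other 12 epiblasts. A floor of 3 counts corresponded to 0.0484 to 0.0966 CPM, the count scaled to an equal library size with TMM. The targeted genes followed the labels: *Ehmt2* was at 10.3 to 32.8 CPM in controls and 3.22 to 9.46 CPM in its knockouts, and *Ezh2* at 53.4 to 112 CPM in controls and 11.8 to 16.6 CPM in its knockouts. Knockout against control was tested per cross over all transcripts with edgeR's quasi-likelihood test, and calls required both a p-value below 0.05 after Benjamini-Hochberg adjustment and a log2 fold change above 1.4 or below −1.4. The *Ehmt2* model had a term that separates replicates 1 to 3 from replicate 4, after the column names of the study's list of changed transcripts, which set knockout 4 against control 4, although its methods compare each knockout with all controls. All 8 epiblast markers were detected in every group, at a summed 1761 to 3040 CPM. Visceral endoderm markers summed to 1.47 to 55.9 CPM in 12 epiblasts but to 1159 CPM in *Ezh2* control 2 and 2637 CPM in *Ezh2* knockout 1. Extraembryonic ectoderm markers summed to 22.6 to 127 CPM in *Ehmt2* controls and 21.4 to 346 CPM in *Ehmt2* knockouts, highest in knockout 1.

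The gamma array was expressed at a moderate level in every epiblast, the alpha array at a low level and most single beta genes near the limit of detection. In controls, the beta genes summed to means of 1.07 CPM (*Ehmt2* cross) and 1.06 CPM (*Ezh2* cross). The lowest alpha transcript was below these sums, at 0.424 and 0.555 CPM. Over the 7 controls of both crosses, the level per kb of transcript was 1.63 CPM per kb for *Pcdhgc3*, higher than 63.5% of the 22119 genes. The next gamma genes, *Pcdhgc5*, *Pcdhga3*, *Pcdhga9* and *Pcdhgb6*, were at 1.55, 1.55, 1.52 and 1.51 CPM per kb. These levels, that of *Pcdhgc3* and its rank included, are set mostly by reads that the gamma transcripts share. The alpha genes *Pcdhac2*, *Pcdha12*, *Pcdha9*, *Pcdha11* and *Pcdhac1* were at 0.0886 to 0.093 CPM per kb, and the highest beta gene, *Pcdhb13*, was at 0.0795 CPM per kb. Each of these alpha levels includes the reads shared across the array, and the beta level has no constant exon reads.

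**Figure D1:**
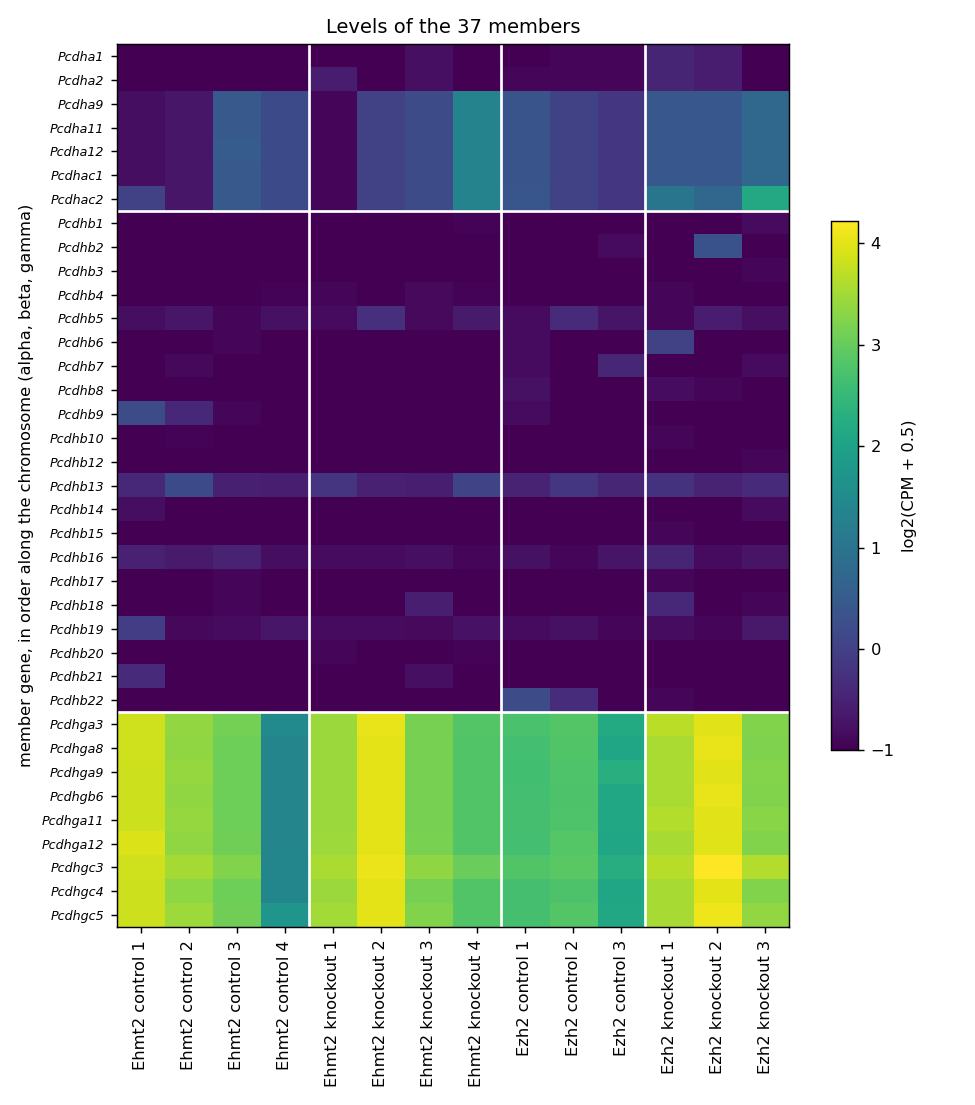
Level of each of the 37 members (rows, in order along the chromosome, with white lines between the alpha, beta and gamma arrays) in each of the 14 epiblasts (columns), as log2(CPM + 0.5). The 9 gamma rows are bright and nearly alike within a column, the alpha rows from *Pcdha9* on follow each other, and the beta rows are dark apart from single cells.

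In the *Ezh2* cross the gamma level was higher in each of the 3 knockouts than in any control, although no gamma gene passed the adjusted edgeR threshold. The lowest gamma transcript was at 5.77, 6.32 and 3.78 CPM in controls 1 to 3 and at 11.1, 15.2 and 8.82 CPM in knockouts 1 to 3. The 2 ranges did not overlap, and the means were 5.29 ± 1.34 and 11.7 ± 3.23 CPM (SD, n = 3 and 3), a ratio of 2.21. A two-sided exact permutation test gave p = 0.1, the smallest that 3 against 3 allows. In the fit over all transcripts, the 9 gamma genes had log2 fold changes between 1.11 and 1.26, with a median of 1.17 beside 0.03 over all 13998 genes tested.

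None of the 14 members tested in the *Ezh2* cross was called, where 0.00714% of the genes tested were (1 gene, *Ezh2* itself). At an unadjusted p-value under 0.05, edgeR gave 10 of the 14 members, all higher in knockouts: the 9 gamma genes and *Pcdhac2*. Over all genes tested, 5.50% were higher at that threshold and 3.37% lower. The adjusted p-values of the 9 gamma genes were 0.344 to 0.458. DESeq2, on the same transcripts, gave all 9 an adjusted p-value under 0.05 (0.00234 to 0.0332), as it did for 0.843% of genes in that direction, but their fold changes stayed under the threshold of 1.4, so it also called 0 members. Every knockout was above every control for all 14 members, as for 7.70% of genes tested, and since the 14 hold 2 sets of shared reads this is a statement about 2 arrays and not about 14 genes. For the lowest alpha transcript the gap was narrow, with 30 counts (0.831 CPM) in knockout 2 and 27 counts (0.783 CPM) in control 1. Knockout 1 had 26 counts there (0.837 CPM). With 1 of the 6 epiblasts left out at a time, the gamma median was 0.92 to 1.33 and 9 to 11 members had an unadjusted p-value under 0.05. Without the 2 epiblasts with high visceral endoderm markers, the gamma median was 1.34 and the same number of members as before, 10, passed that threshold.

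**Figure D2:**
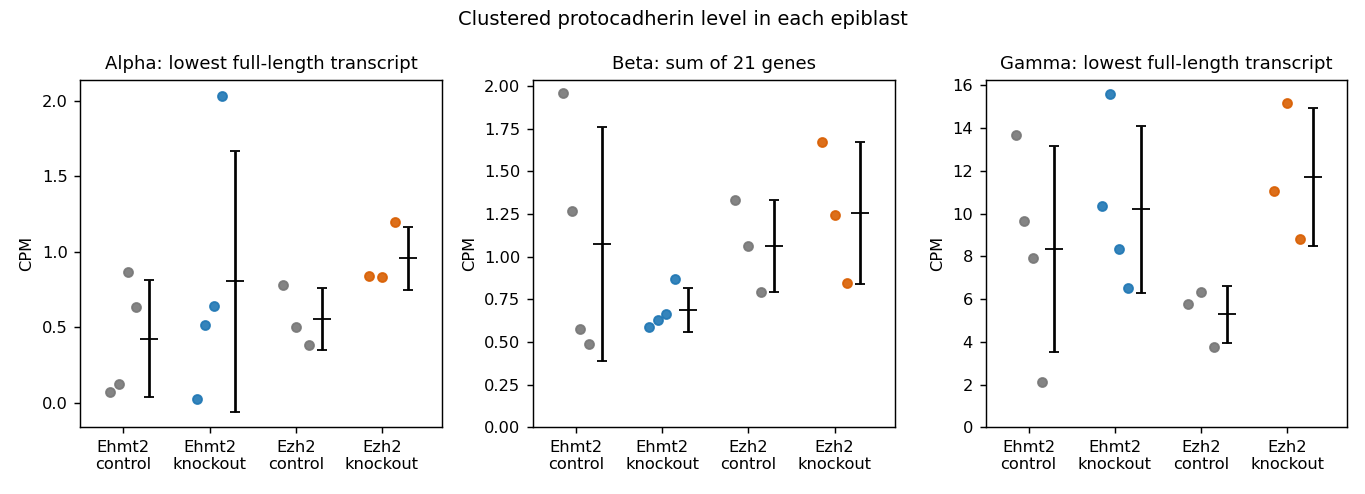
Level in CPM of the lowest full-length alpha transcript, of the 21 beta genes summed, and of the lowest gamma transcript, in each epiblast (points, by group) with the mean and SD of each group (bars). In the *Ezh2* cross the 3 knockouts sit above the 3 controls for gamma, at 8.82 to 15.2 against 3.78 to 6.32 CPM. For alpha they do so by a narrow gap, at 0.831 to 1.20 against 0.381 to 0.783 CPM. The *Ehmt2* groups overlap in all 3 panels.

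*Pcdhgc3*, the first of the 3 C-type gamma genes, had the highest count of the gamma transcripts in 10 of 14 epiblasts. Its transcript (ENSMUST00000076807, 18:37806410-37841873) was at 6.46, 6.88 and 4.30 CPM in *Ezh2* controls and 12.2, 18.2 and 11.9 CPM in *Ezh2* knockouts. The log2 fold change was 1.26 (standard error 0.27, edgeR adjusted p = 0.344), the largest of the gamma genes. Its counts above the lowest gamma transcript were 24, 19 and 18 in controls and 35, 109 and 113 in knockouts, or 0.595 ± 0.0891 against 2.41 ± 1.11 CPM (SD, n = 3 and 3). Here too every knockout was above every control, and in a fit of these counts with the rest of the table the log2 fold change was 2.01 (standard error 0.51, edgeR adjusted p = 0.445, unadjusted p = 0.00266).

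The counts above the lowest gamma transcript, summed over the 9 genes, were 1.57, 1.86 and 1.55 CPM in *Ezh2* controls and 3.90, 7.12 and 5.17 CPM in *Ezh2* knockouts, again without overlap, a ratio of 3.25. The genes that supplied them differed between epiblasts. *Pcdhgc5*, another C-type gene, had 6, 8 and 1 such counts in controls and 3, 54 and 38 in knockouts, and knockout 1 lay inside the range of the controls. Among the alternate genes *Pcdhgb6* had 1, 0 and 1 in controls and 6, 33 and 5 in knockouts, *Pcdhga11* had 4, 4 and 1 against 22, 4 and 18, and *Pcdhga3* had 11, 11 and 10 against 40, 5 and 2. *Pcdhga8* reached 32 in knockout 2 and *Pcdhga9* reached 22 in control 3. *Pcdhga12* had 1, 14 and 0 in controls and 0, 0 and 3 in knockouts. *Pcdhgc3* and *Pcdhgb6* were the gamma genes for which these counts did not overlap between the groups, both higher in knockouts. Unadjusted p-values under 0.05 were found for *Pcdhgc3*, *Pcdhgb6* (0.00633), *Pcdhgc5* (0.0311) and *Pcdhga11* (0.0387) by edgeR, all higher in knockouts, and none of them passed after adjustment. On whole counts, every knockout was above every control for 7.70% of genes tested, and 5.50% were higher at that unadjusted threshold.

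*Pcdhac2*, the last gene of the alpha array and a C-type gene, stood apart from the other alpha genes in the *Ezh2* knockouts. Its transcript (ENSMUST00000047479, 18:37143503-37187657) was at 0.812, 0.502 and 0.381 CPM in controls and at 1.55, 1.16 and 3.92 CPM in knockouts, a log2 fold change of 1.96 (standard error 0.59, edgeR adjusted p = 0.560, unadjusted p = 0.0075). Its counts above the other alpha transcripts were 1, 0 and 0 in controls and 22, 12 and 100 in knockouts. Pooled over the group and scaled for library size, this was a ratio of 132, with a 95% interval from 23.3 to 5261 that covers counting error only. In the fit of these counts the unadjusted edgeR p-value was 3.77e-04 and the adjusted one 0.307. Most of the knockout counts came from knockout 3, and the level was also above that of every control in knockouts 1 and 2. *Pcdha9*, *Pcdha11*, *Pcdha12* and *Pcdhac1*, with no such counts in this cross, all had 0.783, 0.502 and 0.381 CPM in controls and 0.837, 0.831 and 1.20 CPM in knockouts. The log2 fold change of each was 0.78, with a standard error of 0.58 and an edgeR adjusted p-value of 0.843. Without knockout 3, the log2 fold change of *Pcdhac2* was 1.25 and its unadjusted edgeR p-value 0.0726, the lowest fold change of the 6 with 1 epiblast left out.

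**Figure D3:**
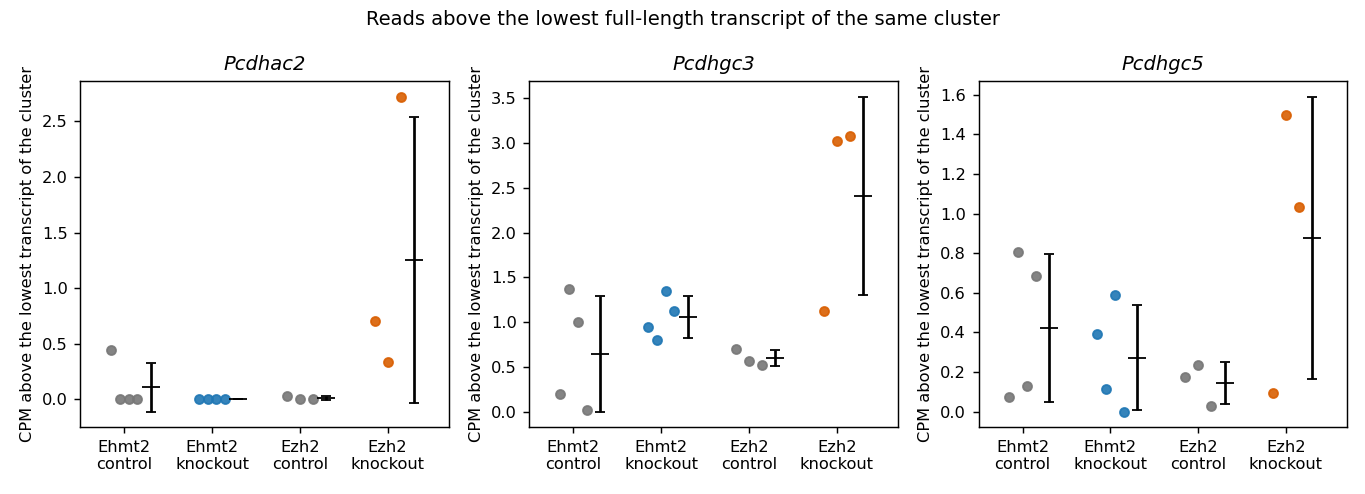
CPM of *Pcdhac2*, *Pcdhgc3* and *Pcdhgc5* above the lowest full-length transcript of their array in the same epiblast (points, by group), with the mean and SD of each group (bars). *Ezh2* knockouts lie above *Ezh2* controls without overlap for *Pcdhac2* and *Pcdhgc3* but not for *Pcdhgc5*, and all 4 *Ehmt2* knockouts are at 0 for *Pcdhac2*.

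Some markers of other cell types were also higher in *Ezh2* knockouts at the unadjusted threshold, and none passed after adjustment. Of 10 extraembryonic ectoderm markers, 7 were tested and 4 were higher in knockouts at an unadjusted p-value under 0.05 (*Esrrb*, *Tfap2c*, *Hand1* and *Bmp4*), and the sum over the list was 67.7 to 101.04 CPM in controls and 76.4 to 151 CPM in knockouts, which overlapped. The 4 listed markers of blood and endothelium summed to 0.709 to 2.96 CPM in controls and 6.12 to 7.12 CPM in knockouts, of which the blood and endothelial regulator *Tal1* made up 0 to 1.93 and 3.90 to 5.28 CPM. The marker lists for neural cells, 7 of 8 genes tested, and for mesoderm and primitive streak, 6 of 8 tested, had 0 genes at that threshold in this cross. Visceral endoderm markers, 9 of 10 tested, also had 0. Among the 8 epiblast markers, all tested, *Otx2* was lower at it (log2 fold change −0.33). Over all genes tested in this cross, 5.50% were higher and 3.37% lower at that threshold. The part of other cell types in the gamma and *Pcdhac2* levels was not tested, and a larger share of such cells cannot be told apart from more RNA per epiblast cell.

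In the *Ehmt2* cross the gamma levels of knockouts and controls overlapped, and their means differed by less than the SD within either group. The lowest gamma transcript was at 13.7, 9.67, 7.92 and 2.11 CPM in controls 1 to 4 and at 10.4, 15.6, 8.35 and 6.52 CPM in knockouts 1 to 4. Control 4 was the lowest and knockout 2 the highest of the 8, and the groups overlapped. The means were 8.35 ± 4.81 and 10.2 ± 3.92 CPM (SD, n = 4 and 4, two-sided exact permutation test, p = 0.571). Log2 fold changes of the 9 gamma genes in the fit, which sets knockout 4 against control 4, were 0.39 to 0.54, with a median of 0.47 beside 0.01 over all 13738 genes tested, and edgeR adjusted p-values of 0.54 to 0.643. None of the 14 members tested was called, where 0.852% of the genes tested were, and 0 had an unadjusted p-value under 0.05, where 15.4% of genes did. DESeq2 gave 0 members at an unadjusted p-value under 0.05 as well. Both epiblasts of replicate 4 carried much of the fitted difference, and without them the gamma median was 0.12. With no term for replicate 4, the gamma median was 0.28, the alpha median 0.93, and 0 members had an unadjusted p-value under 0.05. Without control 1, 6 gamma genes had an unadjusted p-value under 0.05 (log2 fold changes of 0.70 to 0.73), and none was called. Of 10 extraembryonic ectoderm markers, 8 were higher in *Ehmt2* knockouts at an unadjusted edgeR p-value under 0.05, and of 8 epiblast markers 4 were lower. *Elf5*, *Esrrb*, *Tfap2c*, *Bmp4* and *Sox21* of the first list were also called, unlike the markers of the *Ezh2* cross. Their log2 fold changes were 3.20 to 6.03 and their edgeR adjusted p-values 0.0031 to 0.0468. No epiblast marker was called. Of 7 mesoderm and primitive streak markers tested, *Mixl1* (−4.21) and *Lhx1* (−2.29) were lower at the unadjusted threshold. Of 7 neural markers tested, *Tubb3* (−1.66) and *Elavl3* (−0.78) were lower and *Neurod1* (2.77) was higher at it. None of these was called. The lists for visceral endoderm and for blood and endothelium had 0 genes at that threshold. The part of these marker lists in the array levels was not tested. Without knockout 1, which had the highest sum of the extraembryonic ectoderm list, the gamma median was 0.59.

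*Pcdhgc3* was at 13.9, 11.0, 8.92 and 2.13 CPM in *Ehmt2* controls and 11.3, 16.4, 9.70 and 7.65 CPM in *Ehmt2* knockouts. Its log2 fold change was 0.54 (standard error 0.31, edgeR adjusted p = 0.540). Above the lowest gamma transcript it had 8, 65, 38 and 1 counts in controls and 34, 28, 53 and 70 in knockouts, which overlapped. *Pcdhgc5* had 3, 38, 5 and 38 such counts in controls and 14, 4, 23 and 0 in knockouts. Its log2 fold change in the fit of all its counts was 0.39 (standard error 0.27, edgeR adjusted p = 0.622), the smallest of the gamma genes. *Pcdhga12* had 50 in control 1 and 0 to 8 in the other 7 epiblasts. Summed over the 9 genes, these counts were 0.902 to 3.47 CPM in controls and 1.18 to 2.40 CPM in knockouts, and overlapped.

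The alpha level also overlapped between the *Ehmt2* genotypes, over a wide range. The lowest alpha transcript had 3, 6, 33 and 35 counts in controls and 1, 18, 25 and 126 in knockouts, or 0.0734, 0.127, 0.866 and 0.631 against 0.0280, 0.513, 0.638 and 2.03 CPM. The lowest and the highest of the 8 epiblasts were both knockouts, numbers 1 and 4. Means were 0.424 ± 0.387 and 0.803 ± 0.861 CPM (SD, n = 4 and 4, two-sided exact permutation test, p = 0.6). The 5 alpha genes tested had log2 fold changes of 0.17 (*Pcdhac2*) to 0.56, with standard errors of 0.87 for *Pcdhac2* and 0.93 for *Pcdhac1*. The median of 0.56 was 0.16 without replicate 4 and 1.85 without control 3. *Pcdhac2* had 18 counts above the other alpha transcripts in control 1 and 0 in the other 3 controls and in all 4 knockouts.

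**Figure D4:**
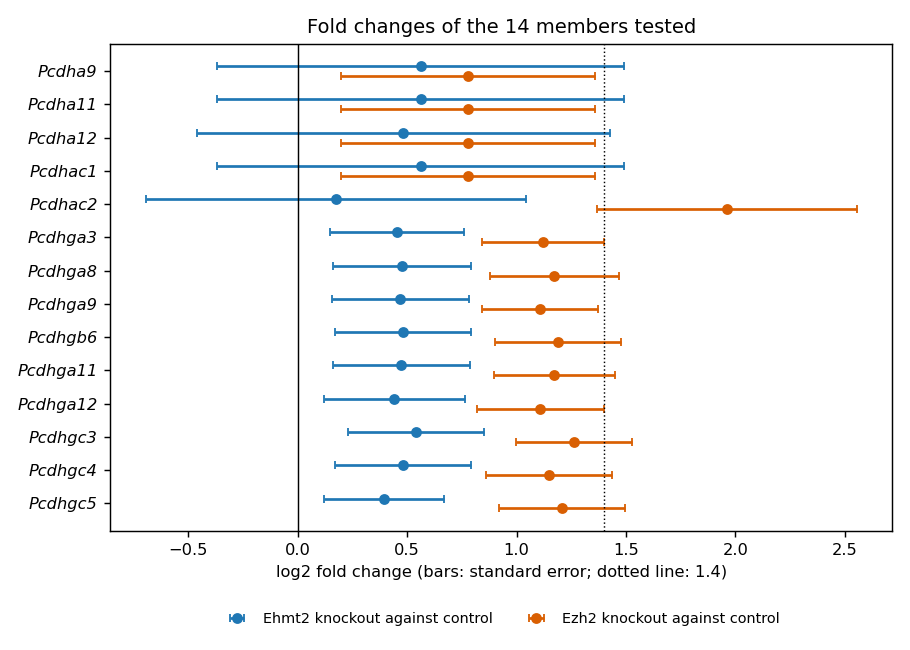
Log2 fold change of knockout against control (points) with its standard error (bars) for the 14 members tested, in the *Ehmt2* cross (blue) and the *Ezh2* cross (orange), from edgeR. The 9 gamma genes lie at 0.39 to 0.54 in the *Ehmt2* cross and 1.11 to 1.26 in the *Ezh2* cross, and *Pcdhac2* at 0.17 and 1.96, with *Pcdhac2* in the *Ezh2* cross as the only point beyond the dotted line at 1.4.

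Whether the effect of the knockout differed between the crosses was tested with an interaction term over all 14 epiblasts. The difference was 0.64 to 0.82 on the log2 scale for the 9 gamma genes, larger in the *Ezh2* cross, with unadjusted edgeR p-values of 0.0695 to 0.178. It was 1.78 for *Pcdhac2* (standard error 1.14, edgeR adjusted p = 0.72). Of 15 members in this fit, 0 had an adjusted p-value under 0.05, where 0.118% of genes did, and 0 an unadjusted one under 0.05, where 10.3% of genes did. Without replicate 4 of the *Ehmt2* cross, the 9 gamma differences were 1.00 to 1.12, all 9 had an unadjusted p-value under 0.05 (0.00814 to 0.0281), and their adjusted p-values were 0.416 to 0.552. For the counts above the lowest transcript, *Pcdhac2* had an unadjusted edgeR p-value of 0.00119 and an adjusted one of 0.25. The *Ehmt2* side of this result rests on 4 knockouts at 0 and on 18 counts in control 1, with the other controls also at 0. *Pcdhgb6* (unadjusted p = 0.0324, edgeR adjusted p = 0.547) and *Pcdhga11* (unadjusted p = 0.0413, edgeR adjusted p = 0.58) were also under the unadjusted threshold there. The crosses had different controls, and the *Ehmt2* controls spanned a wider range of gamma levels, 2.11 to 13.7 CPM, than the *Ezh2* controls, 3.78 to 6.32 CPM.

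The 21 beta genes have no constant exons, so their counts are their own apart from reads that fit several of these similar genes, whose treatment is not given in the sources used here. No beta gene passed the filter on low counts in either cross. Of the 21, 10 had 3 or fewer counts in every epiblast, 13 were seen in only 1 to 3 epiblasts, and an epiblast had counts for 4 to 12 of them. The sum over the 21 was 1.96, 1.27, 0.577 and 0.487 CPM in *Ehmt2* controls and 0.588, 0.627, 0.664 and 0.871 CPM in *Ehmt2* knockouts (two-sided exact permutation test, p = 0.429). It was 1.33, 1.06 and 0.791 CPM in *Ezh2* controls and 1.67, 1.25 and 0.844 CPM in *Ezh2* knockouts (p = 0.6 by the same exact test). Both pairs of groups overlapped, and the beta sum was not higher in every *Ezh2* knockout as the gamma level was.

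*Pcdhb13* (18:37442500-37446209), *Pcdhb5*, *Pcdhb16* and *Pcdhb19* were the 4 beta genes with a count in all 14 epiblasts. *Pcdhb13* had 10, 30, 7 and 10 counts in *Ehmt2* controls and 13, 7, 7 and 34 in *Ehmt2* knockouts, and 7, 13 and 8 against 11, 8 and 10 in the *Ezh2* cross. Its means were 0.311 ± 0.218 and 0.323 ± 0.172 CPM in the *Ehmt2* cross and 0.274 ± 0.0966 and 0.283 ± 0.0668 CPM in the *Ezh2* cross (SD, exact permutation p = 0.914 and 0.9). *Pcdhb16* had 8, 7, 8 and 4 counts in *Ehmt2* controls and 2, 2, 3 and 2 in knockouts, but the CPM of control 4, 0.0722, lay among those of the knockouts, 0.0323 to 0.0766 (exact permutation p = 0.0571). *Pcdhb5* had 1 to 11 counts and *Pcdhb19* 1 to 19 per epiblast.

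Other beta genes appeared in single epiblasts at counts well above their usual 0. *Pcdhb9* had 26 and 12 counts in *Ehmt2* controls 1 and 2, 1 in control 3, 2 in *Ezh2* control 1 and 0 in the other 10 epiblasts. *Pcdhb22* had 23 and 10 in *Ezh2* controls 1 and 2, 1 in *Ezh2* knockout 1 and 0 elsewhere. *Pcdhb2* had 27 in *Ezh2* knockout 2 and 2 in *Ezh2* control 3, *Pcdhb6* had 16 in *Ezh2* knockout 1 and at most 2 elsewhere, and *Pcdhb21* had 11 in *Ehmt2* control 1 and 3 in *Ehmt2* knockout 3. *Pcdhb18* had 7 in *Ehmt2* knockout 3 and 8 in *Ezh2* knockout 1. The highest beta gene of an epiblast made up 26.9% to 63.0% of its beta counts. It was *Pcdhb13* in 7 epiblasts, in *Ehmt2* knockout 3 tied with *Pcdhb18* at 7 counts. In the other 7 it was a different gene each time, in *Ezh2* control 3 *Pcdhb7*, tied with *Pcdhb13* at 8 counts. With no filter on low counts, *Pcdhb9* in the *Ehmt2* cross and *Pcdhb22* in the *Ezh2* cross, both lower in knockouts, were the beta genes with an unadjusted edgeR p-value under 0.05 (0.00662 and 0.0234, adjusted 0.203 and 0.687). Each rests on 2 or 3 control epiblasts.

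The genes that act with the clustered protocadherins were taken as lists. Of 22 regulators of the locus or of its methylation (CTCF, cohesin and its loaders, DNA methyltransferases and H3K9 methylation factors), 22 were tested in each cross and 0 were called in either. In the *Ehmt2* cross 3 had an unadjusted p-value under 0.05, as 15.4% of all genes tested did, and all 3 were lower: *Atf7ip*, the partner of SETDB1 (log2 fold change −0.82, edgeR adjusted p = 0.0468), *Dnmt3b*, a de novo DNA methyltransferase (−0.50), and *Wiz*, a zinc finger partner of G9a (−0.66). In the *Ezh2* cross *Stag2*, a cohesin subunit (−0.32), and *Setdb1*, an H3K9 methyltransferase (−0.33), were lower and *Wiz* (0.65) was higher at that threshold, each with an edgeR adjusted p-value of 0.404 or more. Over all genes tested in the *Ezh2* cross, 5.50% were higher and 3.37% lower at that threshold. Of 14 intracellular partners and classical cadherin genes, all 14 were tested and 0 were called. At an unadjusted p-value under 0.05 the kinase *Ptk2b* was higher (1.01) and *Cdh2*, N-cadherin (−1.74), and the kinase *Fyn* (−0.79) were lower in *Ehmt2* knockouts. That threshold was passed by 15.4% of all genes tested in the *Ehmt2* cross. Of these 14 genes, 0 passed it in the *Ezh2* cross.

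Of 17 listed genes (non-clustered protocadherins, Celsr cadherins, *Cdhr1* and *Fat1*), 10 were tested in the *Ehmt2* cross and 11 in the *Ezh2* cross, and 0 were called in either. *Pcdh17*, a delta protocadherin, had log2 fold changes of 1.47 and 1.49 in the *Ehmt2* and *Ezh2* crosses, and *Celsr1*, a planar polarity cadherin, of 0.59 and −0.59, each with an unadjusted p-value under 0.05 and an edgeR adjusted p-value of 0.203 or more. *Pcdh18* (−1.32, edgeR adjusted p = 0.0744) and *Celsr3* (−0.68) were lower in *Ehmt2* knockouts at the unadjusted threshold. Over all genes tested, 15.4% passed that threshold in the *Ehmt2* cross, and 5.50% were higher and 3.37% lower at it in the *Ezh2* cross. The median of the list was −0.46 and 0.01 in the *Ehmt2* and *Ezh2* crosses.

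The genes beside the arrays were counted in the same way. Of 26 other genes within 300 kb of the 3 arrays, 20 were tested in the *Ezh2* cross, 5 had a fold change above 0, the median was −0.17, and 0 were called. *Taf7*, a general transcription factor gene that lies between the beta and gamma arrays, was at 50.8 ± 0.882 CPM in *Ezh2* controls and 37.2 ± 2.64 CPM in *Ezh2* knockouts (SD, n = 3 and 3), a log2 fold change of −0.45 (edgeR adjusted p = 0.491). *Fchsd1* (−1.76) and *Rell2* (−1.73) were also lower at the unadjusted threshold, as were 3.37% of all genes tested in the *Ezh2* cross. In the *Ehmt2* cross 21 neighbours were tested, with a median of −0.09 and 0 called. *Diaph1*, a formin gene downstream of the gamma array, was at 59.0 ± 8.75 CPM in *Ehmt2* controls and 37.005 ± 1.77 CPM in *Ehmt2* knockouts (SD, n = 4 and 4), a log2 fold change of −0.67 (edgeR adjusted p = 0.0357), which is under the fold threshold. The log2 fold change of *Taf7* was 0.25 there (edgeR adjusted p = 0.411), with the opposite sign to the *Ezh2* cross. It also passed the unadjusted threshold, as did 15.4% of all genes tested in the *Ehmt2* cross.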

How the data were processed

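The Ovation V2 kit was used to amplify 750 pg of RNA from each of 14 single E6.25 epiblasts, which was sequenced as single-end reads. The authors aligned reads with Tophat2 to GRCm38, counted them per Ensembl release 74 transcript with HTSeq, and deposited raw counts. Bowtie is also named in the submitters' processing notes. Transcripts missing from a table were given 0. A row of unaligned reads, present in *Ehmt2* control 4 (12.6%) and knockout 4 (13.3%), was removed. Of 72515 transcripts, 70021 (96.6%) had an identifier in GENCODE vM21, the source of names and positions. Per gene, the transcript with the highest mean count was used.

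Low transcripts were removed with edgeR's filterByExpr by genotype. Counts were scaled with TMM, fitted per cross over all transcripts with glmQLFit and tested with glmQLFTest. A standard error is the log2 fold change over the square root of F. Logarithmic levels are log2(CPM + 0.5). Between-cross effects were tested with an interaction term. Single values were compared with two-sided exact permutation tests, whose smallest p is 0.0286 for 4 against 4. The exact conditional binomial interval and the floor of 3 counts cover counting error only, and no molecular identifiers were used. The p-values measure the spread between single embryos. Same-numbered epiblasts were not paired, and the text used here does not say which shared a litter. Their deviations from the group means correlated at 0.0611 to 0.416 (*Ehmt2*) and −0.18 to 0.23 (*Ezh2*). For different-numbered epiblasts this was −0.281 to 0.198 and −0.291 to 0.257. The 0.416 belongs to replicate 4, which the *Ehmt2* model sets apart. Among *Ehmt2* replicates 1 to 3 alone, same-numbered epiblasts correlated at −0.00927 to 0.0305.

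Genes named were members called or with an unadjusted p-value under 0.05, the 5 highest per array by CPM per kb, C-type genes, and listed genes called or under that threshold. Single-epiblast beta genes and counts above the lowest transcript were picked after their values were seen. Members, lists and tests were chosen with earlier results of these data known. Columns of the study's own fold changes were not used. The code was tested on simulated counts. Alternatives were DESeq2, RLE scaling, no filter, 1 transcript per gene, a replicate block, no comparison set term and each epiblast left out. Python 3.11.15 was used with numpy 2.4.6, matplotlib 3.10.9, scipy 1.17.1 and pandas 2.3.3, and R 4.3.3 with DESeq2 1.42.0 and edgeR 4.0.16. Sequences are not reported here.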

Additional observations from a re-analysis of the deposited data

Results flagged for a closer look

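Among the array levels and the genes described above, 46 groups of 4 *Ehmt2* epiblasts were examined with Dixon's test for a sample far from the others, and 1 was found. Chance alone gives about 1 in 20 groups, and the groups share reads. *Pcdhb13* in *Ehmt2* control 2 was at 0.635 CPM, while the other 3 controls were at 0.18 to 0.245 CPM. Groups of 3 *Ezh2* epiblasts cannot be examined in this way.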

How the results depend on the processing

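No member was called in either cross under any alternative run, and the count of members that differed between the crosses stayed at 0. In the *Ezh2* cross the call rule had little reach, since *Ezh2* itself did not always pass it. Its edgeR adjusted p-value was 0.0784 with 1 transcript per gene in the fit. Without knockout 1, 2 or 3 it was 0.0817, 0.343 and 0.180. Under a replicate block, the gamma median was 0.47 in the *Ehmt2* cross and 1.17 in the *Ezh2* cross, where 10 members had an unadjusted p-value under 0.05, and the block changed no call. For the *Ehmt2* cross, the count of members with an unadjusted p-value under 0.05 was 1 with no filter on low counts and 0 to 6 with 1 epiblast left out, the alpha median 0.16 to 1.85 and the gamma median 0.12 to 0.72. For the *Ezh2* cross, the alpha median with 1 epiblast left out was 0.57 to 1.11. Measured as a ratio of mean CPM, the alpha level of *Ezh2* knockouts over controls was 1.72 for the lowest transcript, 3.91 for the highest, which is *Pcdhac2*, and 129.8 for counts above the lowest, which rests on 1 count in the controls. The gamma level was 2.21 and 3.25 for the lowest transcript and the counts above it. *Pcdhac2* in the *Ehmt2* cross changed sign: its log2 fold change was −0.34 without replicate 4 (both epiblasts left out), −0.34 to 0.72 with 1 epiblast left out, and −5.02 for counts above the lowest transcript, where 4 knockouts at 0 make the value depend on the prior count. *Pcdhgc5* was −0.84 in the *Ehmt2* cross for counts above the lowest transcript. The causes of these shifts were not tested. The filter left no beta gene, so the beta median exists only with no filter, −1.41 over 15 genes and 1.84 over 19 genes in the *Ehmt2* and *Ezh2* crosses, on counts near 0. The alternatives on both epiblasts of replicate 4 in the *Ehmt2* fit, on the 2 epiblasts with high visceral endoderm markers and on counts above the lowest transcript in the fits were added after seeing the data.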
